A study of Mus musculus with 10 samples.

Results

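Ribosomal protein genes encode the protein parts of the cytosolic ribosome, and 75 of them, 31 of the small and 44 of the large subunit, were followed here across 10 RNA-seq libraries of a mouse leukaemia line. Members were taken by symbol: Rpl or Rps followed by digits with an optional a, x, y or l, together with Rplp0, Rplp1, Rplp2 and Rpsa. Pseudogene symbols and the Rps6k kinases were left out. Of the 29955 genes listed, 80 had such a symbol, and 75 of these had at least 10 counts in every library. All 75 were also among the 12282 genes that passed the filter for testing.

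The cells are mouse Ph+ ALL cells, leukaemic B cell precursors driven by the p185 form of BCR-ABL1, an oncogene that all 10 libraries share. The parental line gave 2 libraries with no treatment (A and B). Lines derived from it had been taken through rising doses of dasatinib, an inhibitor of the ABL and SRC family kinases, and gave 3 libraries at 1x of the IC90 (A, B and C) and 3 at 16x (A, B and C). Lines carried with the solvent DMSO gave 1 library at the 1x step and 1 at the 16x step. Cells that had grown out could be frozen, rested without drug or taken to the next dose, and the labels do not say whether drug was present when RNA was taken. The labels call the dasatinib libraries biological replicates and the parental ones replicates only, and do not say whether they came from separate cultures or clones. A p-value here covers the spread among these libraries, which may be technical for the parental pair.

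Cells build ribosomes from ribosomal RNA and about equal amounts of each ribosomal protein, and free ribosomal proteins are degraded. Most mammalian ribosomal protein mRNAs begin with a C and a run of pyrimidines, the terminal oligopyrimidine motif, through which mTOR and LARP1 set their translation and stability together. Many ribosomal protein genes have processed pseudogene copies spread over the genome, which complicates the counting of their reads. MYC and mTOR signalling, both active downstream of BCR-ABL1, raise ribosome production in many kinds of cell, B cell precursors included.

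Library depth ran from 29049760 to 45813092 counts. In 7 pairs of replicates the counts differed by more than sampling noise, with a chi-square per gene from 1.88 to 16.4. Of 12 pro-B and pre-B cell markers, 11 had a mean over 1 CPM, and Ebf1 did not. Summed T cell markers reached at most 0.0633 CPM, with Cd4 and Cd8b1 at 0. Macrophage and granulocyte markers summed to 6.44 to 10.6 CPM, with Elane, S100a8 and S100a9 at 0. Among them, Lyz2 had 3.09 to 7.80 CPM and Cd68 had 2.16 to 3.65. Erythroid markers summed to 4.21 to 35.3 CPM, with Hbb-b1 alone over 1 CPM, and stromal markers to at most 0.0682. The pro-B and pre-B sum was 3471 to 3758 CPM in drug-free libraries, 3273 to 3439.55 at dasatinib 1x and 3183 to 3284 at 16x, and a part of this in the results was not tested. Levels are given as CPM, a gene's share of the counts of its library on a common scale, adjusted by TMM, a method of edgeR that equalizes libraries for composition. In bulk RNA, a lower level in every cell and fewer cells with the level cannot be told apart.

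Ribosomal protein mRNAs were among the most abundant of these cells. The 75 genes together took 6.35 to 7.13% of the CPM of a library. Mean CPM over the 10 libraries had a median of 798 and ran from 0.667 for Rps2 to 3725 for Rplp0, the scaffold of the P stalk that draws elongation factors to the ribosome. On this scale, which is not corrected for length, Rplp0 was followed by Rpl4, a protein of the exit tunnel, at 2635 CPM, Rpsa, a small subunit protein also known as the laminin receptor, at 2573, Rpl5 at 2058 and Rpl3, which lies close to the peptidyl transferase centre, at 2008. Per kilobase of coding length, the median level was 1686 CPM for the small subunit and 1706 for the large. The subunits thus stood at about the same level once coding length was taken into account. On that scale Rpl41, the shortest member with 75 coding bases, was highest at 11843 CPM per kb. It was followed by Rplp0 at 3916, Rplp1 at 3190 and Rps12 at 3120. The main transcript of Rpl41 has 544 bases, so its rank rests on dividing by coding length. Levels per kilobase of whole transcript were not computed.

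Single members varied little between libraries. The coefficient of variation over the 10 libraries had a median of 5.58% among the 72 members over 100 CPM, beside 5.53% among all 2510 tested genes of that abundance. Rpl29, Rps3a and Rpl7a had the narrowest range, with the highest library at 1.10, 1.11 and 1.12 times the lowest. Rpl21 had the widest among the abundant members, at 1.53 times.

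A few members were nearly absent from the counts. Rps2, Rpl34 and Rpl13a are core ribosomal proteins, and they stood at 0.411 to 0.886, 1.77 to 2.89 and 5.09 to 7.23 CPM. Under the minimum of 10 counts, and so no member, was Rpl31 with 6 to 29 counts. Rpl10l, Rpl39l and Rpl3l, copies known from testis, muscle or heart, had at most 1, 1 and 7 counts. For Rps2, 79.0% of the stretches of 50 bases of its main transcript also occur in another annotated gene, for Rpl13a 57.4% and for Rpl34 50.6%. Such shares were also high for members with many counts, for example 98.6% for Rps27 and 93.8% for Rpl5, and were 2.96% for Rps3. The sources used here do not give how reads with several matches were counted, and the level of any member with copies is uncertain. A part of this in the low values of Rps2, Rpl34 and Rpl13a was not tested.

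The mRNA starts of these genes were compared with the motif named above. RefSeq (GRCm38.p6) promoter windows were held for 56 of the 75 members. At the annotated start, a C followed by at least 4 bases that are each C or T was found on the gene's strand in 13 of 56 members (23.2%), beside 813 of 27025 gene symbols (3.01%). It was found in 6 of 23 small subunit and 7 of 33 large subunit members. When the start was allowed to lie up to 10 bases away, 33 of 56 members (58.9%) and 34.4% of all symbols matched. The windows below run from 30 bases before the annotated start to 15 bases from it. Capitals mark the C nearest to the annotated start, at most 10 bases away, that begins such a run, and the pyrimidines after it. Pyrimidines before that C, and runs that begin further away, are in small letters. The first 6 show the motif in members of both subunits, and the last 4 are the members on chromosome 5 with a window, on which later results turn.
Rps6 (chr4:86857353-86857397, minus strand): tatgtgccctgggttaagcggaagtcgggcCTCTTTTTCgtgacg
Rps18 (chr17:33955651-33955695, minus strand): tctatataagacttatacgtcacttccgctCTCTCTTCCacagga
Rps27 (chr3:90213634-90213678, minus strand): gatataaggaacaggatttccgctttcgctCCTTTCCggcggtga
Rpl15 (chr14:18270972-18271016, minus strand): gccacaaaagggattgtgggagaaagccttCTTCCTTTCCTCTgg
Rpl28 (chr7:4792935-4792979, plus strand): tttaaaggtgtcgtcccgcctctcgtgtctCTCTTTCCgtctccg
Rpl35 (chr2:39005117-39005161, minus strand): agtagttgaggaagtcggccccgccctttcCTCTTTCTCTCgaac
Rplp0 (chr5:115559437-115559481, plus strand): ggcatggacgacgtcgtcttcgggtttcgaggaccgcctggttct
Rpl5 (chr5:107900498-107900542, plus strand): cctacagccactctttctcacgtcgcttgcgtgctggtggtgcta
Rpl6 (chr5:121204471-121204515, plus strand): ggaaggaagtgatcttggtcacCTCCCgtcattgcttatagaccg
Rpl9 (chr5:65391417-65391461, minus strand): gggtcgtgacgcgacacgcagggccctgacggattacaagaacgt
Of the stretches in capitals, that of Rpl15 is longest, and that of Rpl6 begins 8 bases before the annotated start. In Rpl15 and Rpl35 the run of pyrimidines also reaches back before the capitals, and as a whole it is longer in Rpl35. In the windows of Rplp0, Rpl5 and Rpl9 none begins within 10 bases of the annotated start, which says only that these letters are not at that place. The window of Rpl5 holds such a run further before the start, in small letters.

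Both subunits stood lowest in the parental line. Summed over the 31 small subunit genes, the parental libraries had 25130.4 and 24857 CPM, DMSO 1x 27235 and DMSO 16x 28069. The dasatinib 1x libraries A, B and C had 25618, 27819 and 25407.5 CPM, and the dasatinib 16x libraries had 26400.2, 25936 and 26850.5. The parental sums lay below all others, DMSO 16x was highest, and dasatinib 1x B stood well above A and C. The 44 large subunit genes summed to 38859 and 38635 CPM in the parental line, 40998 in DMSO 1x and 40765.5 in DMSO 16x. In the dasatinib 1x libraries A, B and C they summed to 40510, 43514 and 40348 CPM, and at 16x to 41907.5, 40908 and 42392. Parental was again lowest, but here DMSO 16x was no longer at the top. Group means ± SD of the large subunit were 38747 ± 158 (parental, n = 2), 41457 ± 1783 (dasatinib 1x, n = 3) and 41736 ± 757 (dasatinib 16x, n = 3). Dasatinib 1x A and C lay below every 16x library in both sums.

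**Figure D1:**
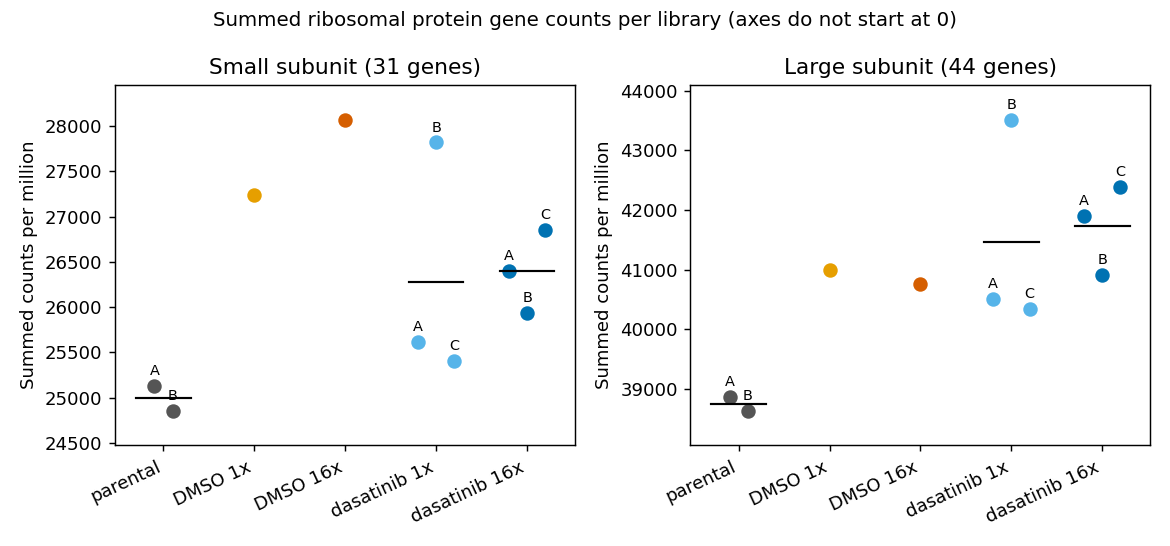
Summed CPM of the 31 small subunit genes (left) and 44 large subunit genes (right) in each library; points are libraries, letters are replicates, bars are means of groups with 2 or 3 libraries, and the axes do not start at 0. The parental libraries are lowest in both panels, DMSO 16x is highest for the small subunit at 28069 CPM, and dasatinib 1x B stands above A and C in both.

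The balance of the subunits differed between the lines, and most of the difference went with 7 genes. The ratio of large to small subunit CPM was 1.546 and 1.554 in the parental libraries, 1.505 in DMSO 1x and 1.452 in DMSO 16x. It was 1.564 to 1.588 in the dasatinib 1x libraries and 1.577 to 1.587 at 16x. The 6 dasatinib libraries all lay above the 4 drug-free ones, by which parental and DMSO libraries are meant throughout. Of the large subunit genes, Rpl5, Rpl6, Rpl9, Rpl21 and Rplp0 lie on chromosome 5 and Rpl17 on chromosome 18, while of the small subunit genes only Rps14 lies on either, on chromosome 18. Without these 7 genes the ratio was 1.168 to 1.174 in the drug-free libraries, 1.175 to 1.185 at dasatinib 1x and 1.184 to 1.190 at 16x. This is a far smaller span, but the 6 dasatinib libraries still all lay above the 4 drug-free ones. The nearest values were 1.17497 in dasatinib 1x B and 1.17431 in parental B. The 5 genes on chromosome 5 summed to 9377 and 9319 CPM in parental, 8942 in DMSO 1x, 7750.2 in DMSO 16x, 10060.3 to 10623 at dasatinib 1x and 10111 to 10388 at 16x. The 68 genes on other chromosomes went another way: 52646 and 52216 CPM in parental, 57403 in DMSO 1x, 59441 in DMSO 16x, 53648 to 58478 at dasatinib 1x and 54592 to 56619 at 16x.

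**Figure D2:**
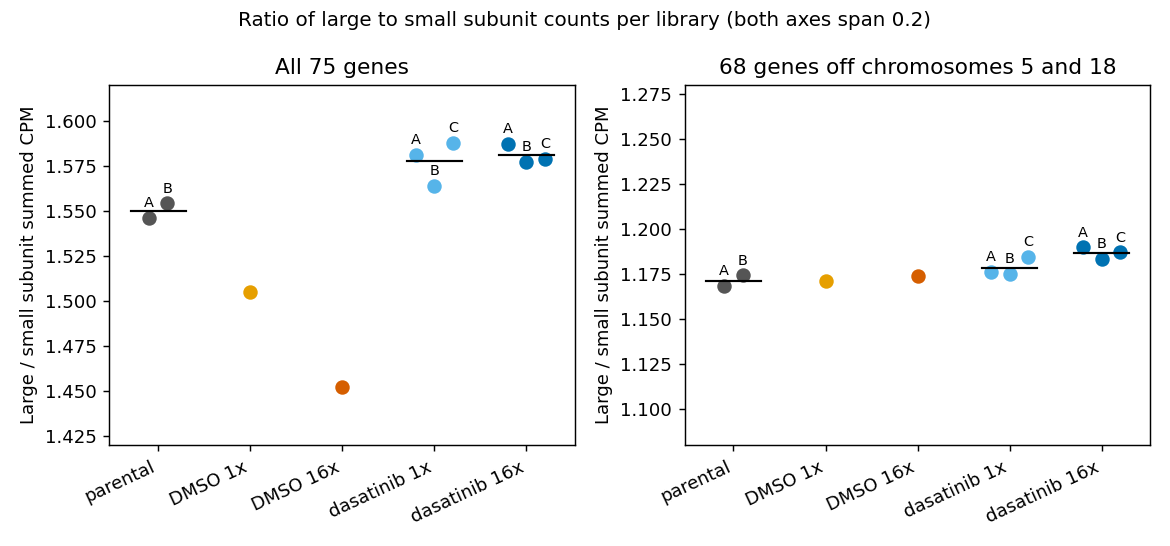
Ratio of large to small subunit summed CPM per library for all 75 genes (left) and for the 68 genes off chromosomes 5 and 18 (right); points are libraries, letters are replicates, bars are group means, and both axes span 0.2. With all genes DMSO 16x is lowest at 1.452, and without the 7 genes every library lies between 1.168 and 1.190.

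The line carried with DMSO to the 16x step was compared with the parental line, with 1 library against 2. The 7 genes on chromosomes 5 and 18 all fell and 33 genes on other chromosomes rose, 15 of the small and 18 of the large subunit. Of all 12282 genes, 30.9% were called in this comparison, 14.7% higher and 16.2% lower. Rpl21, a large subunit protein, had 1033 and 1031 CPM in parental and 790.2 in DMSO 16x. It fell by 23.4% (log2 change -0.39 ± 0.05, SE, adjusted p = 0.000105, edgeR). Rpl5, which binds 5S ribosomal RNA with Rpl11, fell from 1966 and 1988 CPM to 1586, by 19.8% (-0.32 ± 0.05, adjusted p = 0.000271). Rpl6 went from 1721 and 1703 CPM to 1376, Rpl9 from 1063 and 1057 to 855, and Rpl17 from 1116 and 1115 to 915. Rps14, a small subunit protein whose human gene is lost in a myelodysplastic syndrome, went from 851 and 842 CPM to 728, a fall by 14.0%. Rplp0 changed least of the 7, from 3593 and 3538 CPM to 3143, a fall by 11.9% (-0.18 ± 0.04, adjusted p = 0.00544). The median change of the 5 genes on chromosome 5 was -0.32, and that of all 736 tested genes there was -0.47, of which 516 were called lower. On chromosome 18 the 2 members had a median of -0.25, beside -0.51 for all 293 tested genes, of which 212 were called lower. The members thus moved in the direction of the genes around them, which moved further at the median.

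Among the genes that rose in DMSO 16x, Rps12 and Rpl22 stood near the top. Rps12 had 1132 and 1117 CPM in parental and 1382 in DMSO 16x, a rise of 22.9% (0.30 ± 0.06, adjusted p = 0.00222). Rpl22, an RNA-binding large subunit protein often lost in T cell leukaemia, had 298 and 299 CPM against 362 and rose by 21.2% (0.28 ± 0.05, adjusted p = 0.00164). Of the 68 genes off chromosomes 5 and 18, 64 had a change above 0, with a median of 0.17 beside 0.02 for all 10295 tested genes on other chromosomes. The 30 small subunit genes among them had a median of 0.16 and the 38 large subunit genes one of 0.17. The 4 genes below 0 were Rps2, Rpl34 and Rpl13a, with few counts, and Rps27l, and none of these passed the test. The 7 falling genes were called with every library left out in turn. The count of 33 depended on single libraries: it was 18 without parental A, 16 without parental B and 51 without dasatinib 1x B, which enters the estimate of the spread.

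**Figure D3:**
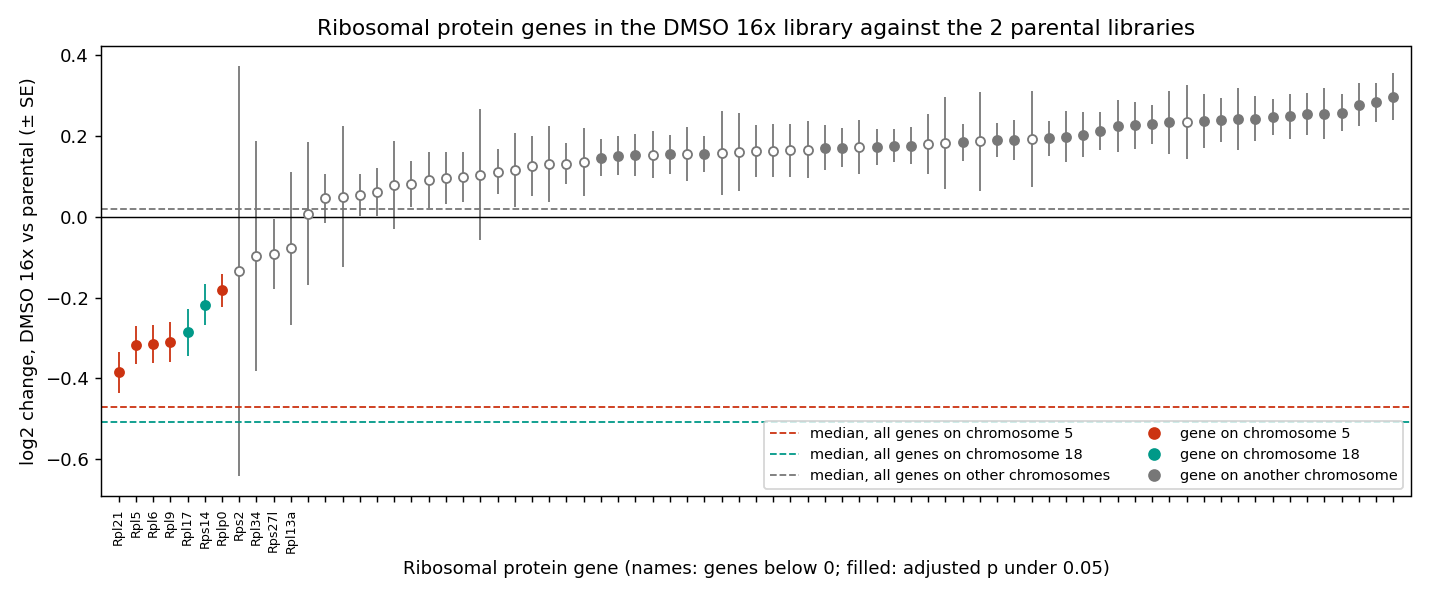
Log2 change of each of the 75 genes in DMSO 16x against parental, with SE, in order of size, with names given for genes below 0; filled points had an adjusted p under 0.05, colours give the chromosome, and dashed lines are the medians of all tested genes on chromosome 5 (-0.47), chromosome 18 (-0.51) and the others (0.02). The 7 genes on chromosomes 5 and 18 stand at the low end and most others lie above 0.

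In the DMSO line at the 1x step, too, most members off chromosomes 5 and 18 had a change above 0 and the 7 genes on them one below 0. Against parental, 1 of the 75 members was called higher by edgeR and none lower, beside 6.17% of all genes (3.31% higher and 2.87% lower). Of the 75 members, 65 had a change above 0, beside 6176 of all 12282 genes. Off chromosomes 5 and 18, 65 of 68 members had a change above 0, with a median of 0.13 beside 0.02 for all genes there. All 7 members on chromosomes 5 and 18 had a change below 0, and none was called. Rpl5 had 1874 CPM (-0.08 ± 0.05), Rpl9 988 CPM (-0.10 ± 0.05) and Rplp0 3470 CPM (-0.04 ± 0.04). The median of the chromosome 5 members was -0.08, beside -0.17 for all genes on it. No member was called without parental A, parental B or dasatinib 1x C. Leaving out dasatinib 1x A gave 2 calls, 16x C gave 3, 16x A or 16x B gave 5, and dasatinib 1x B gave 21. DESeq2 called 10 higher, limma-voom 0, and neither called a member lower. This comparison and the one at 16x share the parental libraries, so their likeness is no independent support.

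Dasatinib lines at 16x were then set against the 4 drug-free libraries. Rps14, Rpl5 and Rplp0 were called higher. These calls are from a fit of 3 classes (drug-free, dasatinib 1x and dasatinib 16x). In it no member was called lower by edgeR, DESeq2 or limma-voom. None had an unadjusted p under 0.05 in that direction with edgeR. In either direction 8 of 75 members had one, beside 3861 of all 12282 genes. A fit of 5 groups also called members lower, as given in the section on processing. DESeq2 called all 7 genes on chromosomes 5 and 18 higher. The edgeR calls in the fit of 3 classes are 3 of 75 members, and of all genes 16.1% were called (7.79% higher, 8.33% lower). The count is thus no result about the members as a group. Rps14 had 950.1, 936 and 963 CPM at 16x, and 851, 842, 794 and 728 in parental A and B, DMSO 1x and DMSO 16x. The groups did not overlap, and the change was 0.24 ± 0.06 (adjusted p = 0.0182, edgeR). Rplp0 had 3961, 3932 and 3959 CPM against 3593, 3538, 3470 and 3143, again apart, with a change of 0.20 ± 0.05 (adjusted p = 0.0191). Rpl5 had 2220, 2129.5 and 2229 CPM against 1966, 1988, 1874 and 1586, with a change of 0.24 ± 0.07 (adjusted p = 0.0443). Rpl6, Rpl9, Rpl17 and Rpl21 had changes of 0.22, 0.21, 0.23 and 0.24 and adjusted p-values of 0.0633, 0.0654, 0.0524 and 0.087. In each of these 7 genes DMSO 16x was the lowest of the 10 libraries. The median of the chromosome 5 members was 0.22, as for all tested genes on chromosome 5. The 68 other members had a median of 0.01, with 40 above 0. That median had no stable sign: it was 0.05 without DMSO 16x (57 above 0), -0.01 without parental A and -0.02 without parental B (24 above 0 in either case). Leaving out DMSO 1x gave 0.03, dasatinib 16x B 0.02 and 16x C -0.0018.

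These calls depended on which libraries entered and, for Rpl5, on the scaling. No member was called without dasatinib 16x A or without C, and all 7 genes were called without DMSO 16x. Rpl5 was also lost without DMSO 1x, any dasatinib 1x library (B included) or dasatinib 16x B, which left 2 calls, and with total-count scaling. Against the parental libraries alone, 15 members were called higher at 16x, the 7 genes and 8 others, Rpl3, Rpl4, Rpl8 and Rps12 among them. Against the DMSO libraries alone, 8 were called higher, the 7 genes and Rps27l, and 13 lower. Off chromosomes 5 and 18, the direction of the calls thus turned with the drug-free libraries taken as reference. The share of all genes called with these references is not reported here, so these counts are no result about the members as a group.

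At the 1x dose no member was called against the drug-free libraries by edgeR or by limma-voom, beside 1.96% of all genes (0.822% higher and 1.14% lower), and DESeq2 called 5 higher and none lower. At an unadjusted p under 0.05 there were 8 members, all higher: the 7 genes and Rps27l. The 7 genes had changes from 0.15 for Rps14 to 0.27 for Rpl21. Rpl21 had 1137, 1209.9 and 1126 CPM at 1x against 1033, 1031, 985 and 790.2 in the drug-free libraries, without overlap (0.27 ± 0.08, adjusted p = 0.139). Rps14 had 888, 933 and 851 CPM, the last just above parental A (0.15 ± 0.06, adjusted p = 0.194). Without DMSO 16x, 4 members were called higher (Rpl5, Rpl6, Rpl21 and Rplp0), and without dasatinib 1x B none was called. The 68 members off chromosomes 5 and 18 had a median of -0.01, which was -0.05 without dasatinib 1x B, 0.03 without 1x A or DMSO 16x, 0.02 without 1x C or DMSO 1x and -0.03 without parental A or B. Between the dasatinib doses, 16x against 1x, no member was called by edgeR, DESeq2 or limma-voom. Of all genes 2.13% were called by edgeR (1.21% higher, 0.928% lower). No member had an unadjusted p under 0.05, beside 1942 of all 12282 genes. Without dasatinib 1x B there was again no call. The median change of the 75 members between the doses was 0.01. Leaving out dasatinib 1x B moved it to 0.06, and leaving out 1x A or 1x C turned it to -0.01. It was 0.03 without dasatinib 16x B and -0.0023 without 16x C. The 75 changes had a range from -0.04 to 0.27 whose upper end is Rpl34, a member with few counts.

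Each dasatinib step was also set against the DMSO line of the same step. At 1x, 6 of the 7 genes were called higher and none of the 75 lower, beside 13.5% of all genes (6.86% higher, 6.66% lower). Rpl6 had 1957, 1939.7 and 1852 CPM against 1624 in DMSO 1x (0.24 ± 0.04, adjusted p = 0.00398, edgeR), and Rpl21 1137, 1209.9 and 1126 against 985 (0.23 ± 0.05, adjusted p = 0.00671). Rps14 was the weakest of the 6 (0.17 ± 0.05, adjusted p = 0.043) and lost its call without parental A, parental B, dasatinib 1x A or dasatinib 1x B, and with limma-voom. Rpl17 was not called (0.16 ± 0.06, adjusted p = 0.0806). Of the 68 others, 61 had a change below 0, beside 5596 of all 10295 tested genes on other chromosomes. The median of the 68 was -0.05, beside -0.02 for all genes there. The median was -0.10 without dasatinib 1x B (1 above 0), -0.04 without 1x A (20 above 0) and -0.03 without 1x C (16 above 0). DESeq2 called 2 lower (Rpl22 and Rpl37a) and limma-voom none. Without dasatinib 1x B the count of members called lower was 20, and without any single dasatinib 16x library it was 1, Rpl22.

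At 16x all 7 genes were called higher and 17 members lower, beside 35.7% of all genes (18.9% higher, 16.8% lower). Rpl21 had 1152, 1104 and 1134 CPM in the dasatinib libraries against 790.2 in DMSO 16x, a difference of 43.0% (0.52 ± 0.05, adjusted p = 5.52e-06, edgeR). Rpl5 had 2220, 2129.5 and 2229 CPM against 1586 (0.47 ± 0.04, adjusted p = 7.17e-06), and Rpl17 1253, 1205 and 1273 against 915 (0.44 ± 0.06, adjusted p = 6.79e-05). The median of the chromosome 5 members was 0.44, beside 0.54 for all genes there, and that of the chromosome 18 members 0.41, beside 0.50. Lower were 8 small and 9 large subunit genes, led by Rpl22, with 304, 299.9 and 306 CPM against 362 (-0.25 ± 0.05, adjusted p = 0.00169). Rpl7 had 1376, 1341 and 1413 CPM against 1572 (-0.19 ± 0.04), and Rpl10a, also of the large subunit, 820.4, 832 and 838 against 948 (-0.19 ± 0.04). The 14 others had log2 changes from -0.186 for Rps3 to -0.114 for Rps6, with Rpsa and Rpl3 between them. Each of these lower genes stood above both parental libraries in DMSO 16x. Rpl3 had 1996, 2039 and 2040 CPM at dasatinib 16x, against 2223 in DMSO 16x and 1874 in each parental library. Rps3, Rps6 and Rpsa also lay above both parental libraries at dasatinib 16x. Rpl7, Rpl15, Rpl27 and Rps4x overlapped with the parental libraries. The count of 17 was 11 without parental A and 29 without dasatinib 1x B. The lines compared here include the single DMSO 16x library, whose own spread cannot be measured and was taken to be like that of the other groups.

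**Figure D4:**
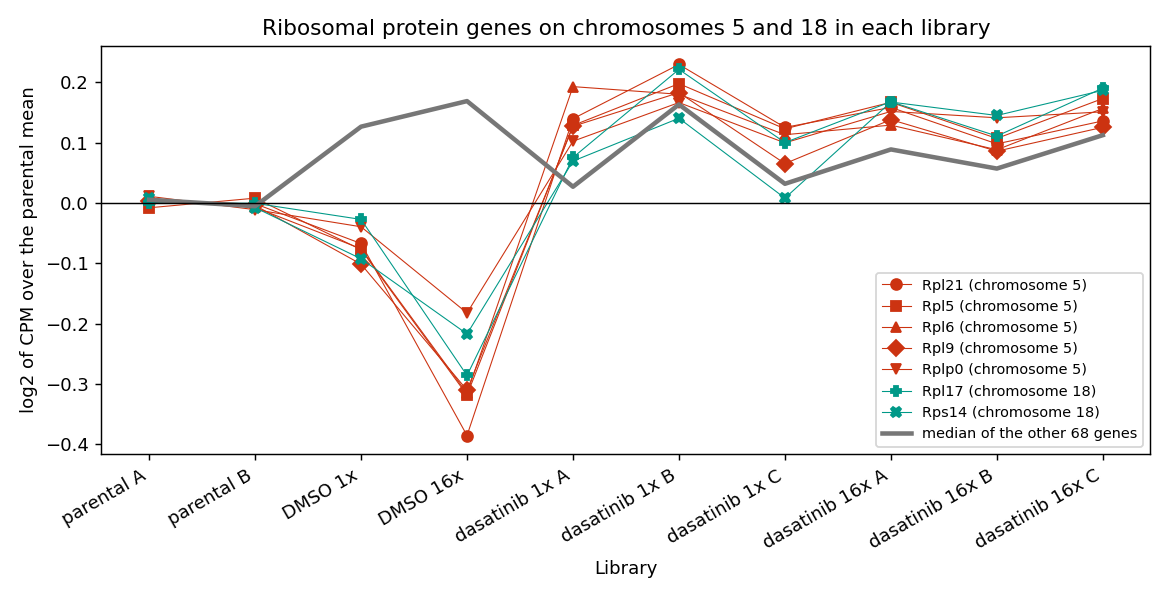
Log2 of the CPM of each gene on chromosome 5 or 18 over its parental mean, by library, with thin lines joining the points of 1 gene and a thick grey line for the median of the other 68 genes. The 7 genes dip in DMSO 16x and stand above 0 in every dasatinib library, while the grey line is highest in DMSO 16x and dasatinib 1x B.

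Whether the step from 1x to 16x differed between dasatinib and DMSO was tested as an interaction. Rpl21 and Rpl5 passed, with differences of 0.28 ± 0.07 (adjusted p = 0.0245, edgeR) and 0.24 ± 0.06 (adjusted p = 0.0393), and none of the 75 members passed in the lower direction or had an unadjusted p under 0.05 in it. DESeq2 called all 7 genes on chromosomes 5 and 18 higher, and neither it nor limma-voom called a member lower. Of all genes, 6.74% were called (5.37% higher, 1.37% lower). In DMSO, Rpl21 went from 985 to 790.2 CPM and Rpl5 from 1874 to 1586, while the dasatinib 1x and 16x libraries overlapped in both. The other 5 of the 7 genes had differences of 0.17 to 0.28 and an unadjusted p under 0.05, and no member off chromosomes 5 and 18 had one. Both calls were lost without parental A, parental B, dasatinib 1x A or dasatinib 1x C, which leaves 0. Leaving out dasatinib 16x B gave 5 calls and 1x B gave 8.

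Members that work together did not all move together. Of the 5S particle, which binds and holds back Mdm2 when ribosome assembly fails, Rpl5 (chromosome 5) fell in DMSO 16x while Rpl11 (chromosome 4) rose, from 726 and 709.7 CPM to 839.9 (0.23 ± 0.06, adjusted p = 0.0108). Of the P stalk, Rplp0 (chromosome 5) fell while Rplp1 (chromosome 9) and Rplp2 (chromosome 7) rose, by 0.22 ± 0.06 and 0.23 ± 0.08 (adjusted p = 0.0207 and 0.0444). The calls of Rplp1 and Rplp2 were lost without parental A or B, that of Rplp2 also without dasatinib 16x B or C and when scaled off chromosomes 5 and 18, and that of Rpl11 without parental B. Rps6, the substrate of the S6 kinases, had 1205 and 1197 CPM in parental and 1357 in DMSO 16x (0.18 ± 0.04, adjusted p = 0.00587), and 1233 to 1274 CPM at dasatinib 16x. Rps27a, which is made as a fusion with ubiquitin, rose in DMSO 16x from 642 and 626 CPM to 753 (0.25 ± 0.06, adjusted p = 0.00461), as did Rps3, which lines the mRNA entry, from 1138 and 1122 to 1348 (0.25 ± 0.05, adjusted p = 0.00265). Rpl10, mutated in some T cell leukaemias, rose from 1085 and 1089 CPM to 1283 (0.24 ± 0.05, adjusted p = 0.00535). Rps19 and Rpl35a, mutated in Diamond-Blackfan anaemia, were called in no comparison. Rps19 ran from 644 to 745 CPM over the 10 libraries. Rpl32, often used as a control gene, was also called in none, with 742 to 873 CPM.

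Rps27l, a copy of Rps27 that p53 is known to induce, was the only member off chromosomes 5 and 18 with an unadjusted p under 0.05 in either dasatinib comparison with the drug-free libraries. It had 145 and 146 CPM in parental, 145 in DMSO 1x and 136 in DMSO 16x. The dasatinib 1x libraries had 156, 166 and 148 CPM and the 16x libraries 152, 153 and 174, all above the drug-free ones. The change was 0.13 ± 0.06 at 1x (adjusted p = 0.239) and 0.16 ± 0.06 at 16x (adjusted p = 0.0844), and neither passed. Rps27 itself had 293 and 292 CPM in parental, 341 and 326 in the DMSO lines and 282 to 344 under dasatinib, with overlap between the groups.

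Dasatinib 1x B stood apart from A and C by the length of the genes. Short members were higher in it: Rps29, with 168 coding bases, had 431 CPM in B against 316 and 340.2 in A and C, and Rps28, with 207, had 269.9 against 201 and 217. Rpl35 had 202 CPM against 146 and 172. Long members differed little, as Rpl4, with 1257 coding bases, shows at 2734 CPM in B against 2625 and 2620. Over the 75 members the difference of B from the mean of A and C had a Spearman correlation of -0.763 with coding length, a description across genes that share libraries. Its median was 0.18 over the 37 members shorter than the median of 456 coding bases and 0.09 over the 38 others. For DMSO 1x against parental that correlation was -0.449, and for DMSO 16x 0.0359. The sum of 46 histone genes, whose mRNAs are short and mostly lack a poly(A) tail, was 183 CPM in B and 57.5 to 71.8 in the other 9 libraries. A part of length or of RNA selection in the values of B was not tested. What changed without B stands beside the comparisons above.

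**Figure D5:**
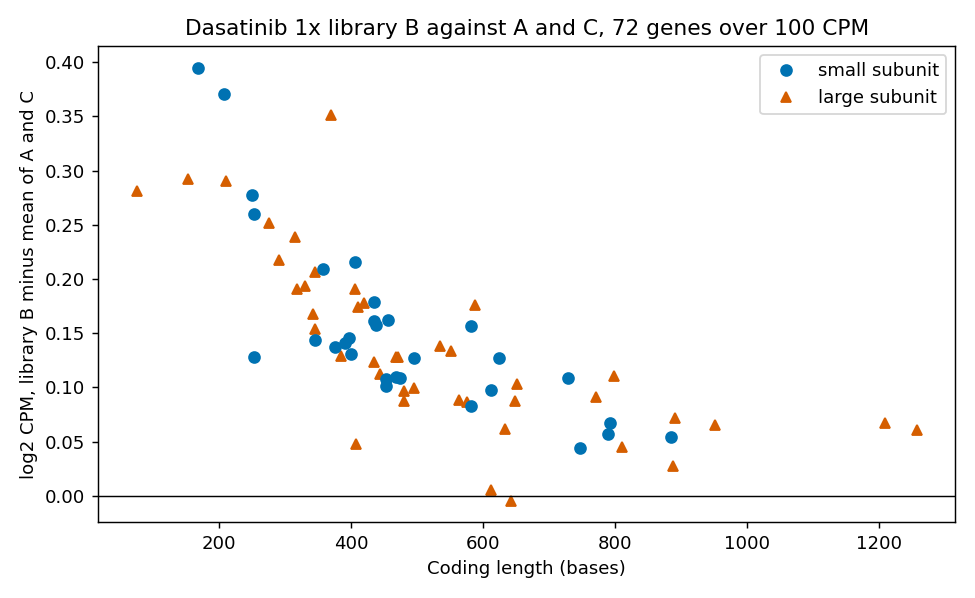
Log2 CPM of dasatinib 1x B minus the mean of A and C against coding length in bases, for the 72 members over 100 CPM; circles are small and triangles large subunit genes. Short genes stand highest, up to Rps29 with 168 coding bases, and the difference shrinks with length in both subunits.

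Other genes of the translation machinery were read from lists, beside the members. In DMSO 16x against parental, 5 of 7 elongation factor genes rose and none fell, beside 14.7% of all genes called higher and 16.2% lower. Eef1a1, which brings aminoacyl-tRNA to the ribosome, had 9301 and 9323 CPM in parental and 10705 in DMSO 16x (0.20 ± 0.04, adjusted p = 0.00187), and Eef2, the translocase, 5026 and 4894 against 5813 (0.23 ± 0.04, adjusted p = 0.000827). Of 36 initiation factor genes 10 rose and 4 fell, and of the ribosome assembly factors 7 of 36 rose and 3 fell for the small subunit and 10 of 38 rose and 3 fell for the large. Of 13 nucleolar genes 4 rose, with Npm1, the nucleolar chaperone, at 0.33 ± 0.05 (adjusted p = 0.000202), and 2 fell, Tcof1 on chromosome 18 and Nop14 on chromosome 5. Of 15 genes of RNA polymerase I and its factors 3 rose and 1 fell, Polr1d on chromosome 5. Of the 12 regulators of terminal oligopyrimidine mRNAs, Myc rose (0.26 ± 0.05, adjusted p = 0.000897), and Rheb, the activator of mTOR on chromosome 5, fell (-0.74 ± 0.06, adjusted p = 1.86e-06) with Tsc2 and Mycn. The median changes were 0.20 for elongation factors, 0.09 for initiation factors, 0.06 and 0.10 for the small and large subunit assembly factors and -0.06 for the regulators, beside -0.01 for all genes tested.

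In dasatinib 16x against DMSO 16x where 18.9% of all genes were called higher and 16.8% lower, the same lists read 0 higher and 4 lower of 7 elongation factors, 6 and 9 of 36 initiation factors, 4 and 10 of 36 small subunit assembly factors and 4 and 8 of 38 for the large subunit. For nucleolar genes it was 2 and 4 of 13, for RNA polymerase I 1 and 6 of 15, and for the regulators 1 and 1 of 12, Rheb and Myc. Against the drug-free libraries at 16x (7.79% of all genes higher and 8.33% lower), the counts were 1 and 0 of 7 elongation factors, 2 and 0 of 36 initiation factors, 2 and 1 of 36 and of 38 assembly factors, 1 and 1 of 13 nucleolar genes, 0 and 0 of 15 for RNA polymerase I, and 0 and 1 of 12 regulators, Tsc1. Of 9 genes of the 5S particle and the p53 switch, Rpl5 and Cdkn1a, the p53 target that halts the cell cycle, were higher and Hexim1 lower. Cdkn1a had 84.6, 92.9 and 108 CPM at 16x against 45.1, 43.1, 53.8 and 68.4 (0.85 ± 0.15, adjusted p = 0.00629). Trp53, the gene of p53, had only 2.42 to 3.66 CPM over the 10 libraries, and a part of p53 in the level of Cdkn1a was not tested. At 1x none of the list genes was called against the drug-free libraries by edgeR.

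Ribosomal proteins outside the symbol rule gave values of the same kind. Gnb2l1, which encodes the small subunit protein RACK1, rose in DMSO 16x (0.18 ± 0.05, adjusted p = 0.00877) and ran from 1578 to 1803 CPM. Fau, a fusion of a ubiquitin-like protein with a ribosomal protein, ran from 388 to 458 CPM and was not called. Rpl22l1, the copy of Rpl22, had 148 to 176 CPM and Rpl7l1 138 to 152, also with no call. None of these 4 was called in any other comparison.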

How the data were processed

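Gene counts of 10 libraries were used as the authors deposited them. Per the labels' protocols, RNA was isolated with RNeasy kits and libraries were made with TruSeq. The submitters' processing notes name CASAVA 1.7.0, Trimmomatic 0.33, TopHat2 2.0.12, BWA 0.7.10, SAMtools, HTSeq 0.6.1, DESeq and the mouse build mm9. Strand setting and the handling of reads with several matches are not given in the sources used here.

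Counts were tested with edgeR 4.0.16 in R 4.3.3 (robust quasi-likelihood test, TMM scaling, filterByExpr with a minimum count of 10) over 12282 genes, which held 99.96 to 99.98% of the counts of a library. Benjamini-Hochberg adjustment ran over all of them with a threshold of 0.05. Comparisons with the drug-free libraries and between doses came from a fit of 3 classes (biological coefficient of variation 15.3%, 7 residual degrees of freedom), and the others from a fit of 5 groups (7.27%, 5 degrees of freedom), in which a lone DMSO library is assumed to vary like the other groups. DESeq2 1.42.0, limma-voom (limma 3.58.1), other scalings, no filter, other references and each library left out were alternatives. Scaling off chromosomes 5 and 18 was chosen after seeing the data. The procedure was tested on simulated data.

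Members and gene lists were chosen with earlier results of these data known. Named were the called members with the highest and lowest change (8 each way with 3 classes, 3 each way with 5 groups), the 5 most and 3 least abundant members, the 3 with the widest and narrowest range, symbols ending in l, members with known roles and ribosomal proteins outside the symbol rule. Other names, among them Rpl35, Rps28, Rps29 and Rps27, were chosen after their values were seen. Results of some genes are not reported here. Chromosomes and promoter windows are from RefSeq (GRCm38.p6), matched by symbol for 11324 of 12282 tested genes and all 75 members. Coding lengths and shared 50-base stretches are from GENCODE transcripts. No coordinate was joined to the mm9 counts.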

Additional observations from a re-analysis of the deposited data

Results flagged for a closer look

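In the 4 drug-free libraries, 1 value stood far from the other 3 for 2 members, each time DMSO 16x. Rpl17 had 915 CPM there, and Rps27l had 136 CPM. Of 42 quantities checked in these libraries, named members and their sums, 2 were far off, and chance flags about 1 in 20. The step from 1x to 16x differed between dasatinib and DMSO for Rpl21 (0.28 on the log2 scale, adjusted p = 0.0245) and Rpl5 (0.24, adjusted p = 0.0393, edgeR's interaction test), with 1 DMSO library at each step.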

How the results depend on the processing

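The 76 calls of single members were recomputed under the alternatives, which gave 1153 values: 1054 kept direction and call, 99 lost the call and 0 changed direction. Counts of members called did move, and the cause was not tested. The share of all genes called under each alternative, or with a library left out, is not reported here. These counts are thus not read as results about the members as a group. For dasatinib 1x against drug-free (0 higher, 0 lower), DESeq2 called 5 higher, the fit of 5 groups 7 higher and 2 lower, parental alone as reference 4 higher, and the DMSO lines as reference 7 higher and 14 lower. For dasatinib 16x against drug-free (3 higher, 0 lower), DESeq2 called 7 higher, the fit of 5 groups 8 higher and 3 lower, parental alone 15 higher, and the DMSO lines 8 higher and 13 lower. For dasatinib 1x against DMSO 1x, members called lower (0) were 1 with total-count scaling, 1 with no filter and 2 with DESeq2. For dasatinib 16x against DMSO 16x, members called lower (17) were 11 when scaled off chromosomes 5 and 18. For DMSO 1x against parental, members called higher (1) were 3 with total-count scaling, 3 with no filter, 10 with DESeq2, 0 with limma-voom and 0 when scaled off chromosomes 5 and 18. The step difference (2 higher) gave 7 with DESeq2.

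With each library left out in turn, members called higher were 0 to 4 (dasatinib 1x against drug-free), 0 to 7 (16x against drug-free), 5 to 7 (1x against DMSO 1x), 7 to 8 (16x against DMSO 16x), 0 to 21 (DMSO 1x against parental), 16 to 51 (DMSO 16x against parental) and 0 to 8 (step difference). Members called lower were 0 to 20 (1x against DMSO 1x), 11 to 29 (16x against DMSO 16x) and 7 to 7 (DMSO 16x against parental), and 0 in the other comparisons. The DMSO comparisons have no value without their own single library.

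Over all tested genes, same-lettered dasatinib 1x and 16x libraries deviated together with correlations of 0.0647, 0.0273 and 0.0517. Unlike letters gave -0.0525 to 0.00857. Over the members alone the same-lettered values were 0.0873, 0.282 and -0.752, and the others ran from -0.628 to 0.667. Over all genes the same-lettered values were highest but small, and the letters were not taken as pairing. The DMSO libraries carry no letter, so a replicate block could be fitted only with parental as the reference. It gave 2 members higher at 1x and 13 at 16x, beside 4 and 15 against parental with no block. The moves from 0 and 3 against all drug-free libraries come with a change of both the reference and the fit. The part of each was not tested. Depth was high for all but Rps2, Rpl34 and Rpl13a.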
